A study of Mus musculus with 3 samples.

Results

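The genes described here are the 2 ligands of PD-1 and 6 further members of the B7 family of co-signalling molecules: Pdcd1lg2, Cd274, Cd80, Cd86, Icosl, Cd276, Vtcn1 and Vsir. They were read by every probe set that the probe annotation gives to exactly 1 of these 8 genes. There were 14 such probe sets, of 38533 that are not controls, and the 8 genes stand among 17886 read by probe sets of a single gene. All 14 carried the current gene symbol.

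The arrays measured wild-type mouse bone-marrow-derived dendritic cells (DCs), grown over 5 days in GM-CSF, the granulocyte-macrophage growth factor, and sorted by flow cytometry on surface PDL2. The 3 groups were PDL2+ untreated cells, PDL2- cells stimulated with LPS, a bacterial ligand of Toll-like receptor 4, at 100 ng/ml, and PDL2- untreated cells. Each group had 1 array, so no difference has a replicate check, no p-value is given, and the precision is limited by the number of arrays. The strain, sex and age of the mice, the number of mice pooled and the length of the LPS treatment are not given in the sources used here.

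B7 proteins sit on antigen-presenting cells and bind receptors on T cells. CD80 and CD86 costimulate through CD28 and inhibit through CTLA-4, ICOSL binds ICOS, and PD-L1 (encoded by Cd274) and PD-L2 (encoded by Pdcd1lg2) bind the inhibitory receptor PD-1. B7-H3 (Cd276), B7-H4 (Vtcn1) and VISTA (Vsir) are mostly known as inhibitors of T cell responses, although activating effects have also been described for B7-H3. DCs typically raise CD80, CD86 and PD-L1 when they mature, and PD-L2 is inducible in DCs and macrophages by interleukin 4 and by microbial stimuli.

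Pdcd1lg2 and Cd274 lie next to each other on chromosome 19 (GRCm38.p6), at chr19:29410919-29472927 and chr19:29362107-29388095, with a gap of 22.8 kb between them. Cd86 (chr16:36568956-36666158) and Cd80 (chr16:38457430-38495958) share chromosome 16 but are 1791 kb apart. Vsir (chr10:60346851-60430294) and Icosl (chr10:78069368-78079525) are on chromosome 10, Cd276 (chr9:58524300-58555033) on chromosome 9 and Vtcn1 (chr3:100825459-100896922) on chromosome 3. RefSeq promoter windows, 250 bases before to 50 after the start, were used for 7 of the 8 genes; that of Cd86 was not analysed here. The windows of the neighbouring PD-1 ligand genes, and that of Vsir, the member that was lower, are shown because these 3 genes carry the widest contrasts between the arrays. Each is on the + strand of GRCm38.p6, at chr19:29410669-29410968 for Pdcd1lg2, chr19:29367188-29367487 for Cd274 and chr10:60346601-60346900 for Vsir. Capitals mark the motif matches found.
Pdcd1lg2: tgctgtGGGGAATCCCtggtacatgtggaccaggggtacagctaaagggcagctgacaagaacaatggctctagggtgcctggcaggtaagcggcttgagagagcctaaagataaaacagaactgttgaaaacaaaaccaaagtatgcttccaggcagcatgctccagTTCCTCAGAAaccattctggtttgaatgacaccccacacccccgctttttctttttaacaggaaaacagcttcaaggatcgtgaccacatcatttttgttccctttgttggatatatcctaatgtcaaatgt
Cd274: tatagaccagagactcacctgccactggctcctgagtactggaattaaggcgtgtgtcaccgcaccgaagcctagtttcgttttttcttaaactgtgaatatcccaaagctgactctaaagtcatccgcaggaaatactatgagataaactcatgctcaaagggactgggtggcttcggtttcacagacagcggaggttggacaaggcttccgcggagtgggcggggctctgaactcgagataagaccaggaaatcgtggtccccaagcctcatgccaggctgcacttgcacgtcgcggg
Vsir: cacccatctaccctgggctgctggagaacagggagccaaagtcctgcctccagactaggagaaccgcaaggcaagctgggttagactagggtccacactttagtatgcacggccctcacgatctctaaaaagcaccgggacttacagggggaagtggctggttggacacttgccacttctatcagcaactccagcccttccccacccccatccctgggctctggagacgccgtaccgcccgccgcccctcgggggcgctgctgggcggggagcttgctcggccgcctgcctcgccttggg

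The motifs searched on both strands were the GAS element TTCNNNGAA, the STAT6 element TTCNNNNGAA, the interferon response core GAAANNGAAA, the AP-1 site TGANTCA and the NF-kB consensus. The Pdcd1lg2 window held 1 NF-kB match, GGGGAATCCC, from 244 to 235 bases before the listed start. It also held 1 STAT6 element, TTCCTCAGAA, from 82 to 73 bases before it, and the 2 matches do not overlap. Of all 32851 listed promoter windows, 4.51% held the NF-kB consensus and 6.95% the STAT6 element. The Cd274 and Vsir windows held none of the 5 motifs, nor did those of Icosl and Cd276. The Cd80 window held 1 AP-1 site, as did that of Vtcn1, and 7.81% of all windows held one. The shares were 8.30% for the GAS element and 3.44% for the interferon response core. The Cd274 window follows the start listed for its promoter, base 29367438, which lies inside the span given for the gene. A match describes letters in the window and shows no binding.

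All values below are log2 signals after quantile normalization of the deposited log2 values. Signals under 5.58, the median of all values, were taken as the floor. A gene is called higher or lower at a 2-fold difference, 1 on the log2 scale. Where a gene has several probe sets, the brightest on average stands for it and the others are given beside it. The only error measure is technical. It is the robust SD of the gap between the log2 differences that the 2 brightest probe sets of a gene gave, which was 0.29 for PDL2+ untreated against PDL2- untreated cells (4251 genes), 0.41 for LPS against no treatment (4231 genes) and 0.44 for PDL2+ untreated against PDL2- LPS cells (4143 genes). It says nothing of cultures or mice. Of the 14 probe sets, 11 were above the floor on all 3 arrays and 3 were below it on all 3, so that 7 of the 8 genes were measured.

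**Figure D1:**
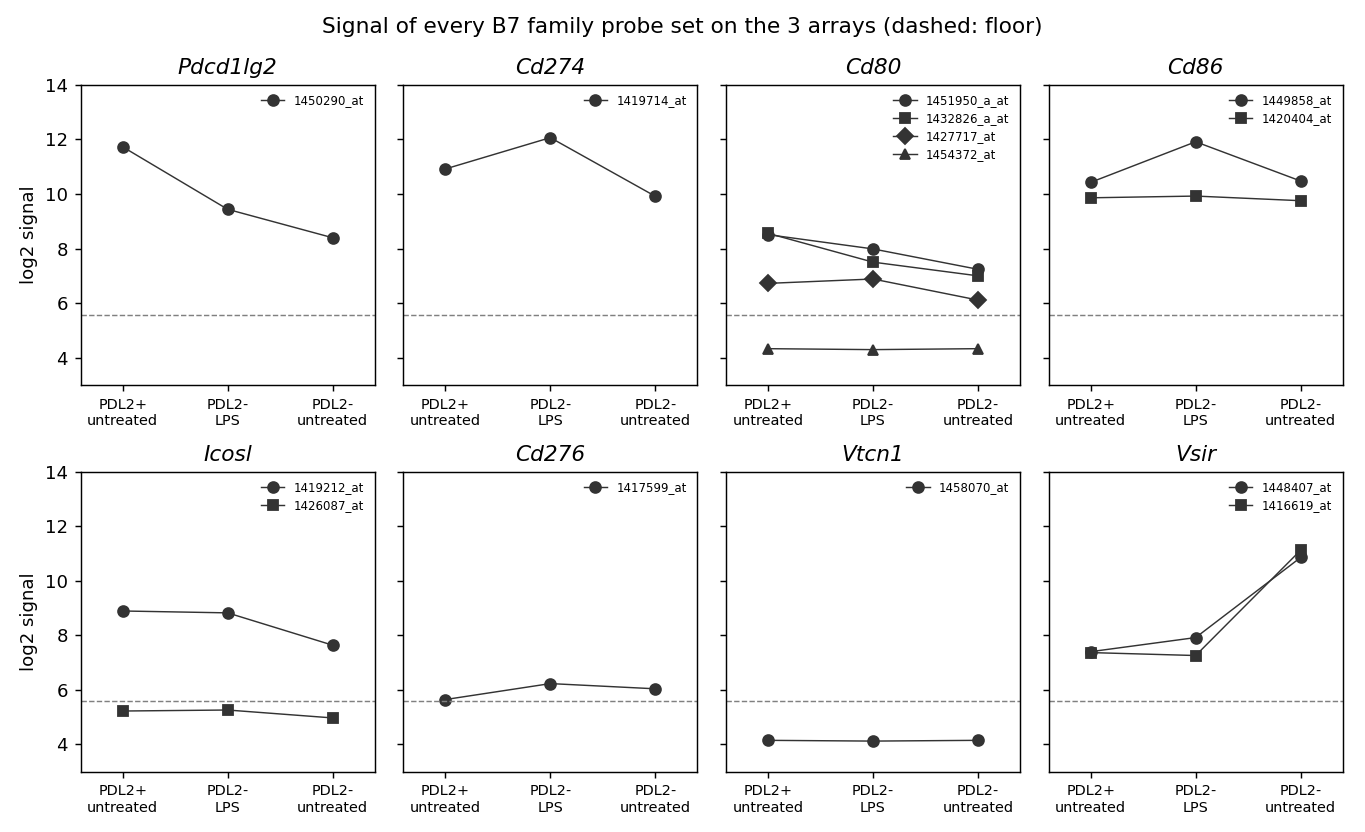
Log2 signal (vertical axis) of all 14 B7 family probe sets on the 3 arrays (horizontal axis), 1 panel a gene and 1 symbol a probe set; lines only join the points of 1 probe set, and the dashed line is the floor of 5.58. Pdcd1lg2 was brightest in PDL2+ untreated cells, Cd274 and 1 Cd86 probe set in LPS-treated cells, and both Vsir probe sets in PDL2- untreated cells.

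Markers of DCs and of other cell types were read on the arrays, and cell identity was not tested. All 10 DC markers, among them Itgax, Zbtb46, Flt3 and the class II genes, were above the floor on all 3 arrays. Their summed linear signal, to which class II genes near the top of the scale such as Cd74 (14.33 on all arrays) add most, was 82485, 69813 and 68011 in PDL2+ untreated, PDL2- LPS and PDL2- untreated cells. Singly, 5 of the 10 DC markers were higher in PDL2+ than in PDL2- untreated cells (Ccr7 76.7-fold, Irf4 10.4-fold, Batf3 6.54-fold, Zbtb46 5.15-fold and Flt3 3.71-fold), and Itgax was 3.18-fold lower. With LPS against no treatment, 1 of 10 was higher, Ccr7 at 24.8-fold. The 8 macrophage markers on the array summed to 2959, 39471 and 52766 in the same order, with Mrc1 below the floor in PDL2+ cells, and the 7 neutrophil markers to 18037, 7697 and 17981. In PDL2- untreated cells the macrophage markers ran from 9.31 (Mertk) to 14.08 (Csf1r). The DC markers ran there from 7.08 (Zbtb46) to 14.50 (H2-Aa), with Flt3 at 7.51 and Itgax at 11.48. Of the T cell markers Cd3d and Cd3g were below the floor on all arrays, as were Ms4a1 and Cd79a of the B cell markers. The T cell markers Cd3e, Cd4 and Cd8a lay above it, at 6.13 to 7.14. Over all B cell markers the summed signal was 156, 173 and 176, and over all T cell markers 287, 342 and 313.

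PDL2+ untreated cells differed from PDL2- untreated cells in 5 of the 7 measured B7 genes. Pdcd1lg2, Icosl, Cd80 and Cd274 were higher, Vsir was lower, and Cd86 and Cd276 did not reach 2-fold. The cells were sorted on the product of Pdcd1lg2, so its difference is a check of the sort and not a result. Without it, 3 of 6 genes were higher and 1 lower, against a background of 10.1% of 10926 genes higher and 13.0% lower. The median log2 difference was 1.00 over the 7 genes and 0.48 without Pdcd1lg2, beside 0.01 over all genes tested. When the probe sets of a gene were averaged, 2 of the genes rather than 4 were higher, since Cd80 (0.86 on the log2 scale) and Icosl (0.75) fell short of 2-fold. These averages include 1454372_at of Cd80 and 1426087_at of Icosl, which were below the floor on all arrays and pull the averages towards no difference. DC markers moved with these differences, with 5 of 10 higher, 1 lower and a median of 0.97, and their part in the B7 results was not tested. In bulk samples such as these, fewer cells of a type and less RNA per cell cannot be told apart.

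LPS-treated PDL2- cells likewise differed from untreated PDL2- cells in 5 of the 7 genes. Cd274, Cd86, Icosl and Pdcd1lg2 were higher, Vsir was lower, and Cd80 and Cd276 did not reach 2-fold. The background was 9.17% of 11000 genes higher and 13.8% lower. The median log2 difference over the 7 genes was 1.04, beside 0.02 over all genes tested. Both groups were sorted as PDL2-, that is, on the product of Pdcd1lg2. Without that gene, 3 of 6 genes were higher and 1 lower, with a median of 0.97. When probe sets were averaged, 2 genes rather than 4 were higher, since Cd86 (0.80) and Icosl (0.74) fell short of 2-fold. The Icosl average includes 1426087_at, which was below the floor on all arrays. Both comparisons use the same PDL2- untreated array, so their values are not independent of each other. Neutrophil markers moved with LPS, with 4 of 7 lower, 0 higher and a median log2 difference of -1.25, and their part in these results was not tested.

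**Figure D2:**
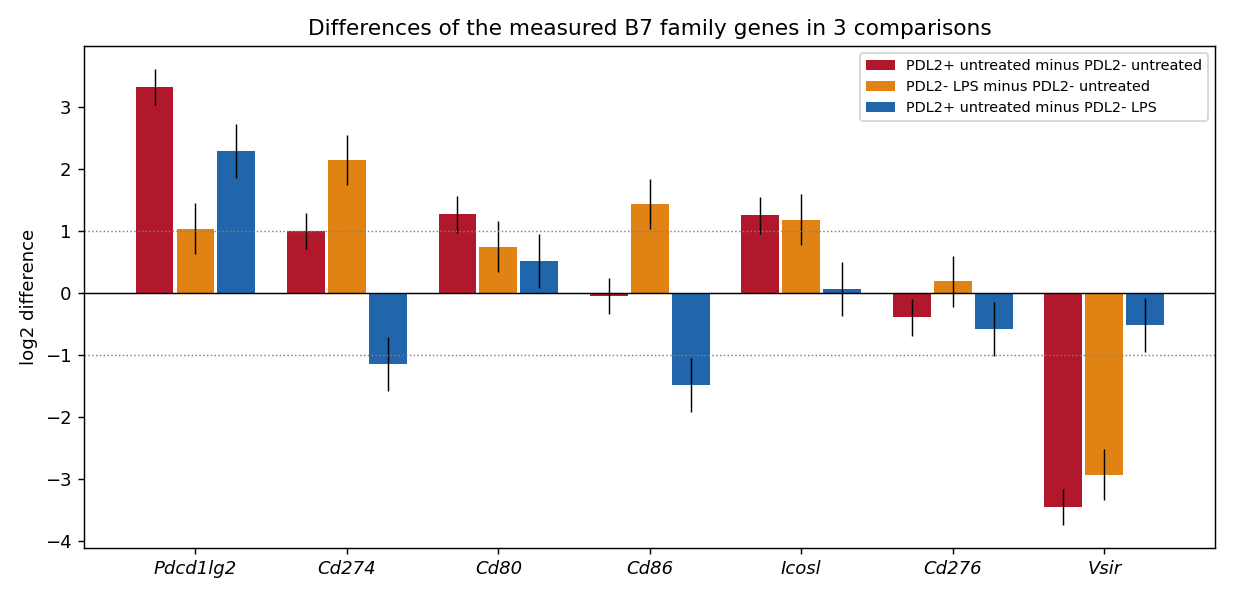
Log2 difference (vertical axis) of the 7 measured B7 genes (horizontal axis) in the 3 comparisons; bars are single-array differences of the brightest probe set, whiskers are 1 technical SD (0.29, 0.41 and 0.44), and dotted lines mark 2-fold. Pdcd1lg2 and Cd274 were higher in the first and second comparisons, Vsir was lower in both, and Cd274 and Cd86 were below 0 in the third.

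Of the PD-1 ligands, Pdcd1lg2 had a log2 signal of 11.73 in PDL2+ untreated cells, 9.44 in PDL2- LPS cells and 8.40 in PDL2- untreated cells. The PDL2- untreated signal lay well above the floor, so signal was detected in the sample sorted as PDL2-. Which cells of that sample carried the transcript cannot be told from a bulk array. Cd274 had a log2 signal of 10.92 in PDL2+ untreated cells, 12.07 in PDL2- LPS cells and 9.92 in PDL2- untreated cells. PD-L1 transcript was highest with LPS, where PD-L2 transcript was intermediate. The LPS-treated sample was labelled PDL2-, and the sample titles do not say whether the sort came before or after LPS. The part of the sort in the place of PD-L2 transcript was not tested.

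Against PDL2- untreated cells, Cd274 was higher by 1.00 on the log2 scale in PDL2+ untreated cells, just past the 2-fold threshold, and 4.44-fold higher in LPS-treated cells. Without further normalization its difference between PDL2+ and PDL2- untreated cells was 0.99 on the log2 scale, just short of 2-fold. With LPS, Pdcd1lg2 was 2.06-fold higher, and its log2 difference of 1.04 was 0.90 without further normalization, also short of 2-fold. The 2 ligand genes changed unequally. The log2 difference of Pdcd1lg2 exceeded that of Cd274 by 2.33 in PDL2+ against PDL2- untreated cells, a gap the sort itself bears on. With LPS against no treatment it was below that of Cd274, by 1.11 (-1.11). Both groups of the LPS comparison were sorted as PDL2-, and the part of the sort in that gap was not tested. Each ligand was read by 1 probe set only.

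Both members of the CD28 ligand pair were above the floor on every array, and their patterns differed. For Cd80, the brightest probe set (1451950_a_at) gave 8.51 in PDL2+ untreated cells, 7.99 in PDL2- LPS cells and 7.24 in PDL2- untreated cells. The second Cd80 probe set (1432826_a_at) gave 8.56 in PDL2+ untreated and 7.50 in PDL2- LPS cells, which lay 1.56 and 0.50 above its PDL2- untreated signal on the log2 scale. The third (1427717_at) gave 6.73, 6.89 and 6.11 in PDL2+ untreated, PDL2- LPS and PDL2- untreated cells. All 3 were lowest in PDL2- untreated cells, and 2 of the 3 were highest in PDL2+ untreated cells. The remaining set, 1454372_at, designed from the same cDNA record as the second, held 1 deposited value on all arrays and lay below the floor.

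Cd80 was 2.41-fold higher in PDL2+ than in PDL2- untreated cells by its brightest probe set, with 2.95-fold and 1.53-fold by the other two. With LPS the 3 sets gave 1.68-fold, 1.42-fold and 1.71-fold, all short of 2-fold.

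For Cd86, the brighter probe set (1449858_at) gave 10.43 in PDL2+ untreated cells, 11.92 in PDL2- LPS cells and 10.48 in PDL2- untreated cells. The dimmer set (1420404_at), from the same cDNA record, gave 9.86, 9.93 and 9.76 and so was nearly level. The LPS difference of Cd86 was 2.71-fold by the brighter set and 1.13-fold by the dimmer one, so that the call rests on 1 of 2 probe sets. Between PDL2+ and PDL2- untreated cells the sets gave log2 differences of -0.05 and 0.11. For each of the 6 pairings of a Cd80 with a Cd86 probe set above the floor, Cd80 had the greater difference in PDL2+ against PDL2- untreated cells, by 0.51 to 1.61 on the log2 scale. With LPS against no treatment, Cd80 had the greater difference in 3 of the 6 pairings and the smaller in the other 3, so the order of the pair was not settled there.

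Icosl, the ligand gene for ICOS, had 8.89 in PDL2+ untreated cells, 8.83 in PDL2- LPS cells and 7.64 in PDL2- untreated cells (1419212_at). It was 2.38-fold higher in PDL2+ and 2.27-fold higher in LPS-treated cells than in PDL2- untreated cells, and the PDL2+ and LPS arrays differed by only 0.07 on the log2 scale. Its other probe set, 1426087_at, was below the floor on all arrays, at 5.23, 5.26 and 4.97. With both sets averaged, the log2 differences of Icosl were 0.75 and 0.74 in PDL2+ and LPS-treated cells, and neither reached 2-fold.

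Vsir, which encodes VISTA, was the member that was lower. Its brighter-on-average probe set, 1448407_at, gave 7.40 in PDL2+ untreated cells, 7.92 in PDL2- LPS cells and 10.86 in PDL2- untreated cells. The other set, 1416619_at, gave 7.37, 7.26 and 11.12. On both sets the PDL2+ and LPS arrays lay close together, and the PDL2- untreated array was far above them. Vsir was 11.0-fold and 13.5-fold lower in PDL2+ than in PDL2- untreated cells, and 7.65-fold and 14.5-fold lower in LPS-treated than in untreated PDL2- cells. Among the 9850 genes above the floor on all 3 arrays, 8 others had differences at least as low as Vsir in both comparisons. That count leaves out genes that fell below the floor on an array, such as Cd28, described below. Of all genes tested, 183 of 10926 had a lower difference than Vsir in PDL2+ cells, and 102 of 11000 with LPS.

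Macrophage markers moved with Vsir in PDL2+ cells. All 8 measured were lower there than in PDL2- untreated cells, with a median log2 difference of -4.81. With LPS, where Vsir was also lower, 3 of 8 were lower and 1 higher, with a median of -0.47. In both comparisons the part of these markers in the Vsir result was not tested.

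Cd276 and Vtcn1, the remaining inhibitory members, showed little signal. Cd276 had 5.65 in PDL2+ untreated cells, 6.23 in PDL2- LPS cells and 6.04 in PDL2- untreated cells, all just above the floor. Its log2 differences of -0.39 and 0.19 from PDL2- untreated cells did not reach 2-fold. Vtcn1 was below the floor on all arrays, with 1 deposited value of 4.14 throughout. A single value on all 3 arrays was held by 2 of the 14 B7 probe sets, and by 18.2% of all probe sets.

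PDL2+ untreated cells were also set against LPS-treated PDL2- cells. Pdcd1lg2, the gene of the sort marker, was the member that was higher, by 4.89-fold. Cd274 was 2.22-fold lower and Cd86 2.80-fold lower in PDL2+ cells, with 1.05-fold for Cd86 on its dimmer probe set. Cd80, Icosl, Cd276 and Vsir did not reach 2-fold, with log2 differences of 0.52, 0.07, -0.59 and -0.52. The second Cd80 probe set did reach it, at 2.08-fold higher. The background was 15.6% of 11042 genes higher and 12.6% lower, beside 14.3% of the 7 members higher and 28.6% lower. The median over the 7 genes was -0.52, beside -0.05 over all genes tested. Without Pdcd1lg2, 0 of 6 genes were higher and 2 lower, with a median of -0.55. Markers of several cell types moved with this comparison. All 8 macrophage markers were lower in PDL2+ cells (median log2 difference -4.18), 4 of 7 neutrophil markers were higher and 0 lower (median 1.08), and 5 of 10 DC markers were higher and 0 lower (median 0.94). The part of these markers in the B7 differences was not tested.

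**Figure D3:**
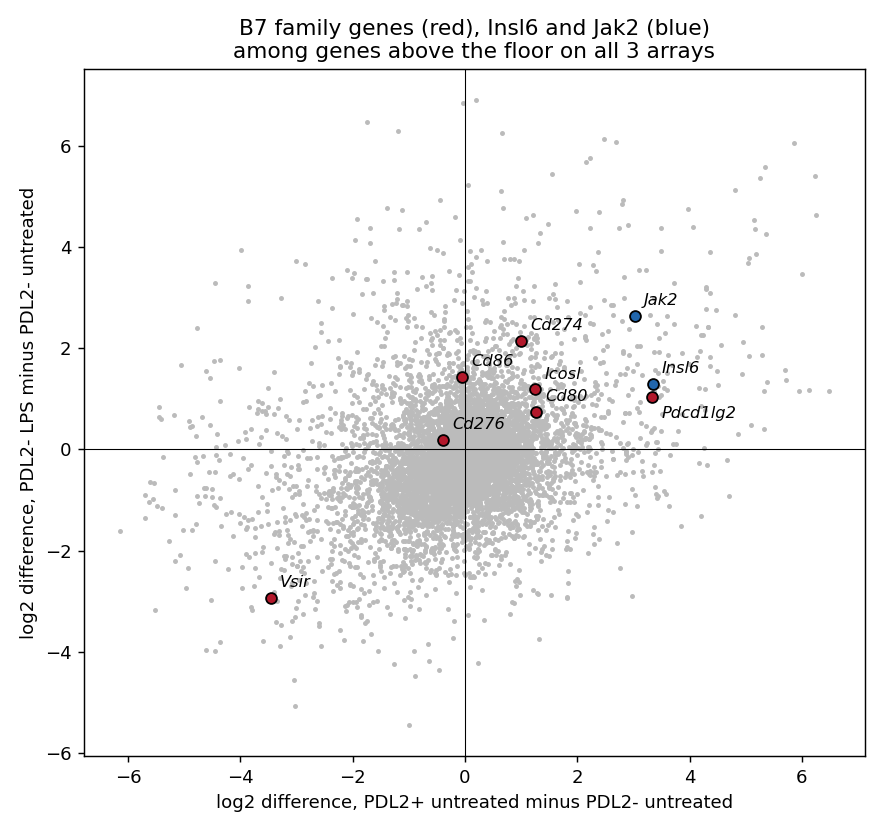
Each point is 1 of the 9850 genes above the floor on all 3 arrays, placed by its log2 difference between PDL2+ and PDL2- untreated cells (horizontal axis) and between PDL2- LPS and PDL2- untreated cells (vertical axis); B7 genes are red, Insl6 and Jak2 blue. Both axes share the PDL2- untreated array. Vsir sits at lower left, Insl6 beside Pdcd1lg2 at right, and Cd86 above 0 on the vertical axis only.

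Patterns across the 3 arrays were compared by the Euclidean distance between 2 log2 differences, those of PDL2+ and of LPS-treated cells from PDL2- untreated cells, over 9849 other genes above the floor on all arrays. With 3 arrays, likeness is only a description. Nearest to Pdcd1lg2 were Rab38, a small GTPase gene (distance 0.12), Tbc1d8 (0.12), Pdlim4 (0.16), Papolg (0.24) and Ncoa7 (0.24), and 16 genes lay within 0.5. Rab38 had 10.02, 7.60 and 6.57 in PDL2+ untreated, PDL2- LPS and PDL2- untreated cells. Nearest to Cd274 were Setdb2 (0.08), Daam1 (0.08), Gabpb1 (0.14), Usp40 (0.15) and Exoc3l4 (0.15), with 44 genes within 0.5. Cd274 itself ranked 820th in likeness to Pdcd1lg2, and Cd80 and Icosl ranked 408th and 409th. In likeness to Cd274, Pdcd1lg2 ranked 5628th, and Icosl, Cd86 and Cd80 ranked 180th, 348th and 482nd. The sort was on the product of Pdcd1lg2, so it bears on the PDL2+ difference used for that gene in these ranks.

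The chromosome 19 neighbours of the PD-1 ligand genes were not alike. Insl6, an insulin-like peptide gene that lies 3 protein-coding genes before Cd274 in RefSeq order, followed Pdcd1lg2. It had 11.55 in PDL2+ untreated cells, 9.51 in PDL2- LPS cells and 8.21 in PDL2- untreated cells. It was 10.2-fold higher in PDL2+ and 2.46-fold higher in LPS-treated cells than in PDL2- untreated cells, and it ranked 6th in likeness to Pdcd1lg2.

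Jak2, the kinase gene next to Insl6 in RefSeq order, had 13.33, 12.94 and 10.30 in PDL2+ untreated, PDL2- LPS and PDL2- untreated cells. It was 8.17-fold and 6.22-fold higher in PDL2+ and LPS-treated cells than in PDL2- untreated cells. Whether the Insl6 probe set reads transcripts that extend from Jak2 was not tested. Plgrkt, whose span shares 5186 bases with that of Cd274, did not follow it, with log2 differences of 0.23 and -0.84 from PDL2- untreated cells in PDL2+ and LPS-treated cells. On the far side, Ric1 differed by 0.41 and 0.75, and a second probe set gave 1.13 and 1.15. Ermp1 differed by 0.02 and -1.09. Rln1 and Mlana were below the floor on all arrays.

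**Figure D4:**
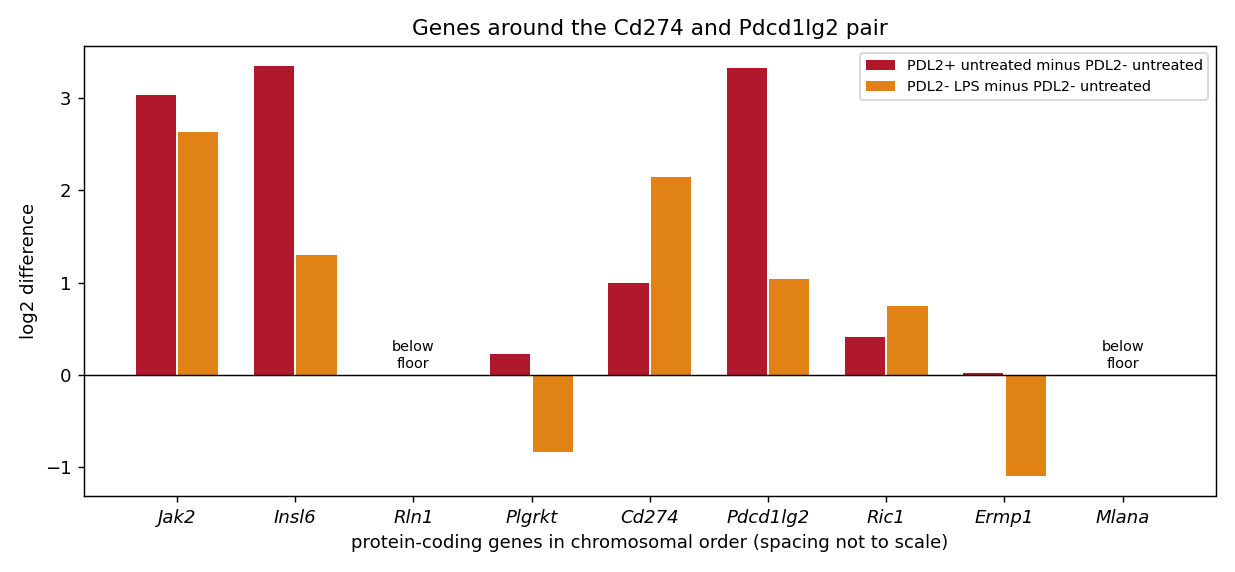
Log2 difference (vertical axis) of Jak2, the PD-1 ligand genes and the 3 protein-coding genes on each side of them, in chromosomal order with spacing not to scale; red is PDL2+ untreated minus PDL2- untreated and orange PDL2- LPS minus PDL2- untreated. Jak2, Insl6, Cd274 and Pdcd1lg2 were above 0 by 1 or more in both, and Plgrkt, which lies between Insl6 and Cd274, was not.

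Receptors of the B7 family, of which CD28, CTLA-4, ICOS and PD-1 are usually thought of as T cell proteins, were partly detected. Cd28, the receptor of CD80 and CD86, had 5.97 in PDL2+ untreated cells, 4.57 in PDL2- LPS cells and 10.45 in PDL2- untreated cells. It was 22.3-fold lower in PDL2+ and at least 29.3-fold lower in LPS-treated cells than in PDL2- untreated cells. Of the 5 T cell markers on the array, Cd3d and Cd3g were below the floor on all arrays, and Cd3e (6.17 to 6.29), Cd4 (6.57 to 7.14) and Cd8a (6.13 to 6.23) were above it on all, none differing by 2-fold. Their part in the Cd28 difference was not tested. Pdcd1, which encodes PD-1, was above the floor in PDL2+ cells only (7.24, against 4.43 in PDL2- LPS and 4.55 in PDL2- untreated cells), at least 3.16-fold higher than in either. Icos likewise had 7.50, against 5.31 in PDL2- LPS and 5.17 in PDL2- untreated cells, at least 3.79-fold higher than in either.

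Rgmb, a receptor for PD-L2, was 2.35-fold higher in PDL2+ than in PDL2- untreated cells, with probe sets from 0.48 to 2.78 on the log2 scale. Selplg, a receptor reported for VISTA, differed by 0.82 there and was 2.90-fold lower with LPS. Ctla4 and Igsf11 were below the floor on all arrays. Of the 5 receptor genes measured in PDL2+ against PDL2- untreated cells, 3 were higher and 1 lower, and of 3 measured with LPS against no treatment, 0 were higher and 2 lower. Pdcd1 and Icos passed the floor only through the PDL2+ array, so they could not count as lower in the first comparison. Both are absent from the LPS count, so the 2 counts cover different genes and cannot be set against each other. Over all genes tested, 10.1% were higher and 13.0% lower in the first comparison, and 9.17% and 13.8% with LPS.

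Among 12 genes linked to the surface level or stability of B7 proteins, 3 were higher and 3 lower in PDL2+ than in PDL2- untreated cells, and 2 were higher and 2 lower with LPS. The list includes Tfrc, whose product marks a compartment, and which was among the lower genes in both. Over all genes tested, 10.1% were higher and 13.0% lower in the first comparison, and 9.17% and 13.8% with LPS, where the list's share lower, 16.7%, was near the background. Marchf1, a ubiquitin ligase that removes CD86 and MHC class II from the surface, had 4.80 in PDL2+ untreated cells, 11.35 in PDL2- LPS cells and 10.03 in PDL2- untreated cells. Cd83, whose product opposes it, had 13.38, 11.06 and 9.24 in the same order. The Cd86 transcript differed by only -0.05 between PDL2+ and PDL2- untreated cells, where Marchf1 was at least 21.8-fold lower and Cd83 17.5-fold higher. Surface CD86 was not measured on these arrays.

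Cmtm6, which protects PD-L1 from lysosomal breakdown, was 2.02-fold higher in PDL2+ than in PDL2- untreated cells and differed by 0.42 on the log2 scale with LPS. Zdhhc3, whose product palmitoylates PD-L1 in human cells, was 2.75-fold higher in PDL2+ cells, with probe sets from 0.59 to 2.12. Zdhhc9, whose human counterpart also palmitoylates PD-L1, was 7.12-fold lower in PDL2+ and 6.21-fold lower in LPS-treated cells. Tfrc, the transferrin receptor gene, whose product marks the recycling endosomes where CMTM6 resides, was 13.5-fold and 6.49-fold lower. Cmtm4, Hip1r, Stub1, Spop, Marchf8 and B3gnt3 did not reach 2-fold in either comparison.

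Among 28 genes of the cytokine, Toll-like receptor and NF-kB inputs to B7 genes, 10 were higher and 5 lower in PDL2+ than in PDL2- untreated cells, with a median log2 difference of 0.41. Over all genes tested there, 10.1% were higher and 13.0% lower, with a median of 0.01. With LPS, 13 of the 28 were higher and 2 lower, with a median of 0.86, beside 9.17%, 13.8% and 0.02 over all genes. The higher shares, 35.7% and 46.4%, lay above the background, and the lower shares, 17.9% and 7.14%, were near or below it. Relb, a subunit of the alternative NF-kB pathway, was 20.2-fold and 5.36-fold higher in PDL2+ and LPS-treated cells, and Rel was 10.8-fold and 5.54-fold higher. Nfkb2 was 7.10-fold and 7.98-fold higher in PDL2+ and LPS-treated cells by its brighter probe set, whose partner gave 1.75 and 0.64 on the log2 scale.

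Irf1, a factor through which interferon gamma induces PD-L1, had 10.31, 11.48 and 8.86 in PDL2+ untreated, PDL2- LPS and PDL2- untreated cells. Irf4 had 11.56, 7.44 and 8.18 in the same order and was 10.4-fold higher in PDL2+ than in PDL2- untreated cells. With LPS Irf4 differed by -0.74 on the log2 scale, where Pdcd1lg2 was higher. The other Irf4 probe set gave 2.02 in PDL2+ cells and -0.01 with LPS. The part of Irf1 and Irf4 in the ligand transcripts was not tested. Il4ra, the interleukin 4 receptor chain, was 3.11-fold and 4.94-fold higher in PDL2+ and LPS-treated cells, although another probe set gave 0.15 and 0.35 on the log2 scale. Stat6, which carries the interleukin 4 signal, differed by 0.27 and -0.87.

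The 5 genes of the list that were lower in PDL2+ cells were Tlr4, Ifngr1, Csf2ra, Myd88 and Socs3. Tlr4 was 15.0-fold and 4.18-fold lower in PDL2+ and LPS-treated cells, and Ifngr1, the ligand-binding chain of the interferon gamma receptor, 5.28-fold and 4.50-fold lower. Csf2ra, the ligand-binding chain of the GM-CSF receptor, was 2.72-fold lower in PDL2+ cells and differed by -0.43 on the log2 scale with LPS. Its other probe set gave -0.70, short of 2-fold, and 0.31. Myd88, the adaptor of most Toll-like receptors, was 2.78-fold lower in PDL2+ and 3.14-fold higher in LPS-treated cells. Socs3, an inhibitor of cytokine signalling, was 3.95-fold lower in PDL2+ and 11.3-fold higher in LPS-treated cells than in PDL2- untreated cells. Socs1, a related inhibitor, was higher in both, by 2.33-fold and 24.7-fold.

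Of 11 other checkpoint and adhesion genes measured, 4 were higher and 4 lower in PDL2+ than in PDL2- untreated cells (median -0.38), and 8 were higher and 2 lower with LPS (median 2.28). Most encode ligands, but the list also holds the receptor genes Cd40 and Cd200r1. In PDL2+ against LPS-treated cells, 1 was higher and 7 lower (median -2.78). Over all genes tested, the shares higher and lower were 10.1% and 13.0%, 9.17% and 13.8%, and 15.6% and 12.6% in these 3 comparisons. Tnfsf4, the OX40 ligand gene, was highest in PDL2+ cells, at 11.00, against 7.79 in PDL2- LPS and 5.95 in PDL2- untreated cells. Lgals9, the galectin 9 gene, had 6.47, 12.63 and 11.08 in the same order, and Tnfsf9, the 4-1BB ligand gene, 5.29, 10.72 and 7.67. Cd40 was 5.60-fold and 70.0-fold higher in PDL2+ and LPS-treated cells than in PDL2- untreated cells, and Icam1 4.70-fold and 5.66-fold higher. Cd48 was 2.07-fold and 2.30-fold lower in PDL2+ and LPS-treated cells. Cd200, an inhibitory ligand gene, was 6.67-fold higher in PDL2+ and 20.6-fold higher in LPS-treated cells, and its receptor gene Cd200r1 was 33.9-fold and 4.27-fold lower. The other Cd200r1 probe set gave -1.47 on the log2 scale in both, a bound set by the floor. Pvr and Nectin2, ligands of TIGIT, were 5.31-fold and 4.85-fold higher with LPS and did not reach 2-fold in PDL2+ cells. With LPS the Pvr probe sets ran from 0.72, short of 2-fold, to 3.24 on the log2 scale.

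In the butyrophilin and Hvem list, 3 of 6 genes were measured. Btla, a receptor of the Hvem network, had 5.17 in PDL2+ untreated cells, 9.35 in PDL2- LPS cells and 7.46 in PDL2- untreated cells. It was at least 3.68-fold lower in PDL2+ and 3.70-fold higher in LPS-treated cells than in PDL2- untreated cells. Tnfrsf14, which encodes HVEM, and Cd160 did not reach 2-fold in either comparison.

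**Figure D5:**
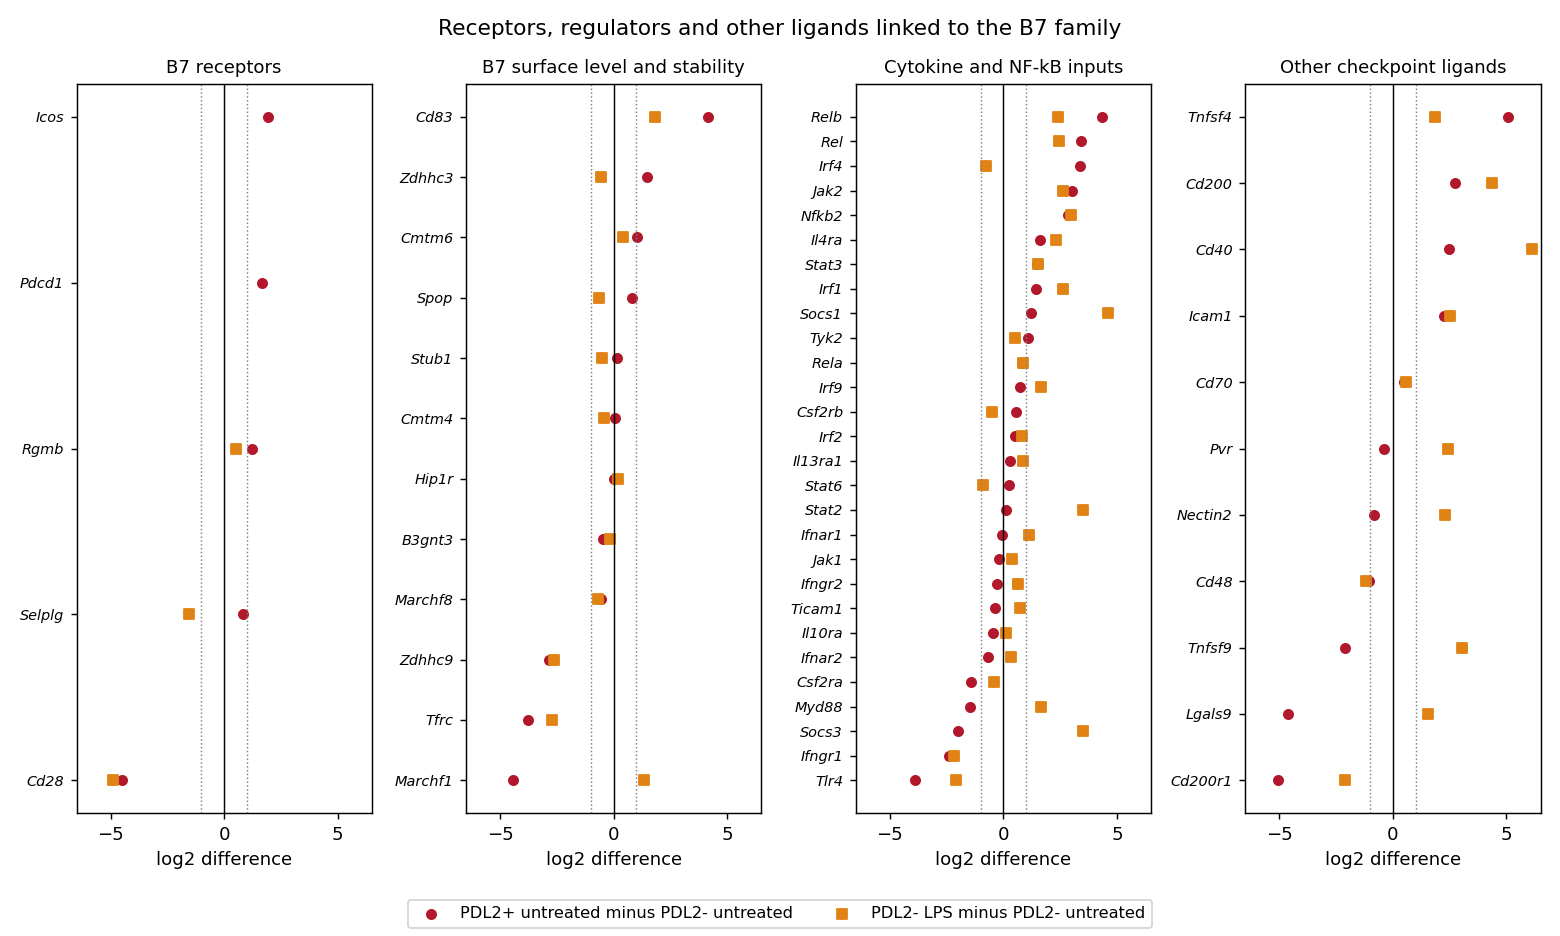
Log2 difference (horizontal axis) of the measured genes (vertical axis) in 4 lists linked to the B7 family; red circles are PDL2+ untreated minus PDL2- untreated, orange squares PDL2- LPS minus PDL2- untreated, dotted lines mark 2-fold, and genes below the floor on 1 array are drawn at their bound. Cd28 was lower in both comparisons, Marchf1, Socs3, Lgals9 and Tnfsf9 lay on opposite sides of 0, and Relb, Rel, Jak2 and Nfkb2 were higher in both.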

How the data were processed

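Probe set signals of 3 arrays, 1 per group, were analysed. The deposited values are log2 summaries per probe set by the authors, as their range shows; how the authors corrected and summarized the probes is not given in the sources. With 13 of 38546 probe sets left out as controls, the 75th percentiles of the arrays differed by more than 0.1, so the log2 values were quantile-normalized (pandas 2.3.3, numpy 2.4.6). Of 38533 probe sets, 33974 name 1 gene, 449 name several and were used for no gene, and 4110 are unnamed; 33787 of the single-gene probe sets were found in RefSeq by Entrez number, and take its symbol. A gene was read by its brightest probe set on average and entered a comparison if above the floor on 1 of the 2 arrays; a difference from the floor is given as at least N-fold. The computation of differences was tested on simulated data with known changes, which bears on the code and not on any call here. Members, gene lists and settings were chosen with earlier results of these data known. All 8 members and every list were named by rule; the 5 nearest genes in pattern follow the distance given. Promoter windows are from RefSeq (GRCm38.p6). With 1 array per group no test between groups was made.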

Additional observations from a re-analysis of the deposited data

How the results depend on the processing

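With 1 array per group, nothing here measures variation between cultures or mice, and signals near the floor or the top of the scale are compressed. No paired analysis was possible because each group has 1 array. No called member difference changed direction under the 5 other normalization, floor and probe set settings, and 93 of 102 recomputed member differences moved by less than the technical SD. Part of these could not move. The 21 with no floor equal the main values, since the probe sets used were above the floor on all arrays. Genes read by 1 probe set do not change under averaging, nor do signals above the higher floor under that floor. Calls of 10 of the 102 changed, and the cause was not tested except where stated. Without further normalization or with median centring, Cd274 in PDL2+ against PDL2- untreated cells was 0.99 under both and Pdcd1lg2 with LPS was 0.90 and 0.93, all short of 2-fold. These settings moved the median of all genes with LPS from 0.02 to -0.09 and -0.06. A floor at the 75th percentile put Cd80 in PDL2+ against PDL2- untreated cells at 0.71, since its lower signal was raised to the floor. With probe sets averaged, Cd80 and Icosl in that comparison were 0.86 and 0.75, Cd86 and Icosl with LPS were 0.80 and 0.74, and Cd86 in PDL2+ against LPS-treated cells was -0.78. The averages of Cd80 and of Icosl each include a probe set that was below the floor on all arrays. Averaging gave 2 members higher in each comparison with PDL2- untreated cells, and 1 lower in PDL2+ against LPS-treated cells. The median over members was 0.50 in PDL2+ against PDL2- untreated cells with no floor, where Vtcn1 enters, and -0.023 in PDL2+ against LPS-treated cells with the higher floor, where Cd276 leaves and Vsir, raised to the floor, goes to -0.12. At 3-fold, 1 member was higher in each comparison with PDL2- untreated cells and 0 were lower in PDL2+ against LPS-treated cells. Over all genes, the higher floor gave 910 lower with LPS and 1099 higher in PDL2+ against LPS-treated cells. At 1.5-fold, 1939 genes were higher and 2229 lower in PDL2+ against PDL2- untreated cells, 1660 and 2707 with LPS, and 2766 higher in PDL2+ against LPS-treated cells. At 3-fold, these counts were 587 and 803, 581 and 646, and 886 and 883.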
